A study of Homo sapiens with 9 samples.

Results

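The regions described here are the H3K9me3 islands of WT BEAS-2B cells that share no base with any H3K9me3 island of mdig KO cells, on chromosomes 1 to 22 and X. There were 1507 such islands, 12.5% of the 12090 H3K9me3 islands of WT on these chromosomes, out of 141489 islands in all libraries. They are called absent islands below. The other 10583 WT islands overlapped a KO island and are called shared, and 22563 KO islands overlapped no WT island and are called KO-only. The series profiled 4 histone marks by ChIP-seq in BEAS-2B, an immortalized line of human bronchial epithelial cells. The KO cells are colonies that lost the mdig protein through CRISPR-Cas9 editing, the WT cells are colonies that went through the same targeting and kept mdig, and both were grown with blasticidin. Each of H3K9me3, H3K4me3, H3K27me3 and H3R8me2a had 1 library of KO and 1 of WT, so no difference between the genotypes has a replicate or a test. The input library, of WT cells, has no islands. An island is a stretch of joined 200 bp windows with enriched reads, given by its start and end alone, so its height and the depth behind it are unknown.

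H3K9me3, trimethylation of lysine 9 on histone H3, marks heterochromatin. It is written by enzymes such as SUV39H1, SUV39H2 and SETDB1, is read by HP1 proteins, and covers silenced repeats, gene-poor chromatin and clusters of zinc finger genes. H3K4me3 marks active promoters, H3K27me3 marks genes held silent by Polycomb, and H3R8me2a is asymmetric dimethylation of arginine 8 on the same histone. Mdig, encoded by RIOX2, is a JmjC domain protein, a family that includes many histone demethylases.

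Sequences from islands that the results turn on are shown here, the middle 200 bases of each, on the plus strand of GRCh37, the assembly that hg19 is based on. Capitals mark CpG dinucleotides. The first is from the 15 kb island chr5:15885201-15900200, in an intron of FBXL7, a substrate-binding subunit of a ubiquitin ligase. The window is chr5:15892601-15892800.
FBXL7: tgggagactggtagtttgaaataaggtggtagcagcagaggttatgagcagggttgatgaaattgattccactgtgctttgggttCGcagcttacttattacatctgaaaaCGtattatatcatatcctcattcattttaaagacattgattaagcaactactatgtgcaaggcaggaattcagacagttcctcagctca
The next is from the island chr10:127574401-127586200, over the divergent starts of DHX32, a helicase-like protein, and FANK1. The window, chr10:127580201-127580400, holds no annotated UTR.
DHX32: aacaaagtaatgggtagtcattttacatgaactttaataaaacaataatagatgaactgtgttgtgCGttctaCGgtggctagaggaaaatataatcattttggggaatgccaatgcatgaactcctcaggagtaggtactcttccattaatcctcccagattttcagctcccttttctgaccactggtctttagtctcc
The stretch chr2:86667201-86667400 is from the 1 kb island at the start of KDM3A, a demethylase of H3K9.
KDM3A: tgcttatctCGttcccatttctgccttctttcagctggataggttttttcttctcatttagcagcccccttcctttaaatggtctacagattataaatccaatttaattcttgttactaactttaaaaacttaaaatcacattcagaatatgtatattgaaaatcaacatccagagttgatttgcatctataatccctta
For contrast, the stretch chr9:137617201-137617400 is from the KO-only island chr9:137608201-137626400 in COL5A1, a chain of collagen V.
COL5A1: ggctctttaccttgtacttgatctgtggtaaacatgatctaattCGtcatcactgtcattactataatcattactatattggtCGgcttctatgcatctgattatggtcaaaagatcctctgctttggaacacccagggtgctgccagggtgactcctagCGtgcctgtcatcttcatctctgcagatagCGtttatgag
GC content was 39.5% in the FBXL7 window, 39% in DHX32 and 32% in KDM3A, against 43.5% in the KO-only window of COL5A1. The number of CpG dinucleotides was 2 in FBXL7, 2 in DHX32 and 1 in KDM3A, against 4 in COL5A1. The composition of all islands is given further on.

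The absent islands were short pieces. They covered 4.46 Mb, 8.45% of the 52.7 Mb under H3K9me3 in WT, while the shared islands covered 48.3 Mb and the KO-only islands 116 Mb. Their median length was 2.4 kb (quartiles 1.6 and 3.6 kb, range 0.4 to 19.4 kb), against 3.6 kb for shared islands (quartiles 2.4 and 5.4 kb, longest 57.8 kb). The share of WT islands that was absent fell with length. It was 39.2% of islands under 1 kb (83 of 212), 25.5% from 1 to under 2 kb, 15.1% from 2 to under 3 kb, 10.3% from 3 to under 5 kb, 5.89% from 5 to under 10 kb and 2.29% at 10 kb or longer (14 of 611). Exact 95% binomial intervals were 32.5% to 46.1% for the shortest class and 1.26% to 3.81% for the longest. These intervals and all others here cover counting error only. The rule itself favours a fall with length, since 1 shared base made an island shared and longer islands have more room for it.

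Most absent islands were not near misses at an island edge. The gap to the nearest KO island had a median of 32.8 kb (quartiles 9.4 and 90.4 kb), was above 5 kb for 1251 islands (83.0%) and above 100 kb for 353 (23.4%). The farthest was the 2.8 kb island chr18:39720201-39723000, 2337 kb from any KO island. Just inside the rule, 4 islands touched a KO island without sharing a base and 66 lay within 1 kb of one. Just outside it, 12 shared islands had only 1 window of 200 bp in common with KO, and 301 had under 50% of their bases covered, while 7012 (66.3%) were covered whole. The absent islands have to be read against the KO library as a whole, in which H3K9me3 islands covered 3.70 times the length they did in WT and 69.9% of islands were KO-only. By the same rule in the other marks, WT islands without a KO overlap made up 6.69% for H3K4me3, 14.2% for H3K27me3 and 28.2% for H3R8me2a.

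The share of absent islands differed widely between chromosome arms. On 5p, 147 of 433 WT islands were absent (33.9%, interval 29.5% to 38.6%), and on 18q 72 of 228 (31.6%, 25.6% to 38.0%). The arms 15q with 83 of 350 (23.7%), 10q with 94 of 423 (22.2%) and 6q with 109 of 497 (21.9%) followed. The interval of 18q overlapped those of 5p, 15q, 10q and 6q, and that of 14q (13.6% to 26.8%) overlapped those of 15q, 10q and 6q, so the order of neighbouring arms is not resolved. At the other end, 3 of 133 were absent on 3p (2.26%, 0.468% to 6.45%), 15 of 558 on 19q (2.69%) and 15 of 474 on 19p (3.16%). The 5 arms above 20%, which were picked after their values were seen, held 33.5% of the absent islands and 16.0% of all WT islands. Within them 26.2% of WT islands were absent (505 of 1931), against 9.86% on the other arms (1002 of 10159).

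**Figure D1:**
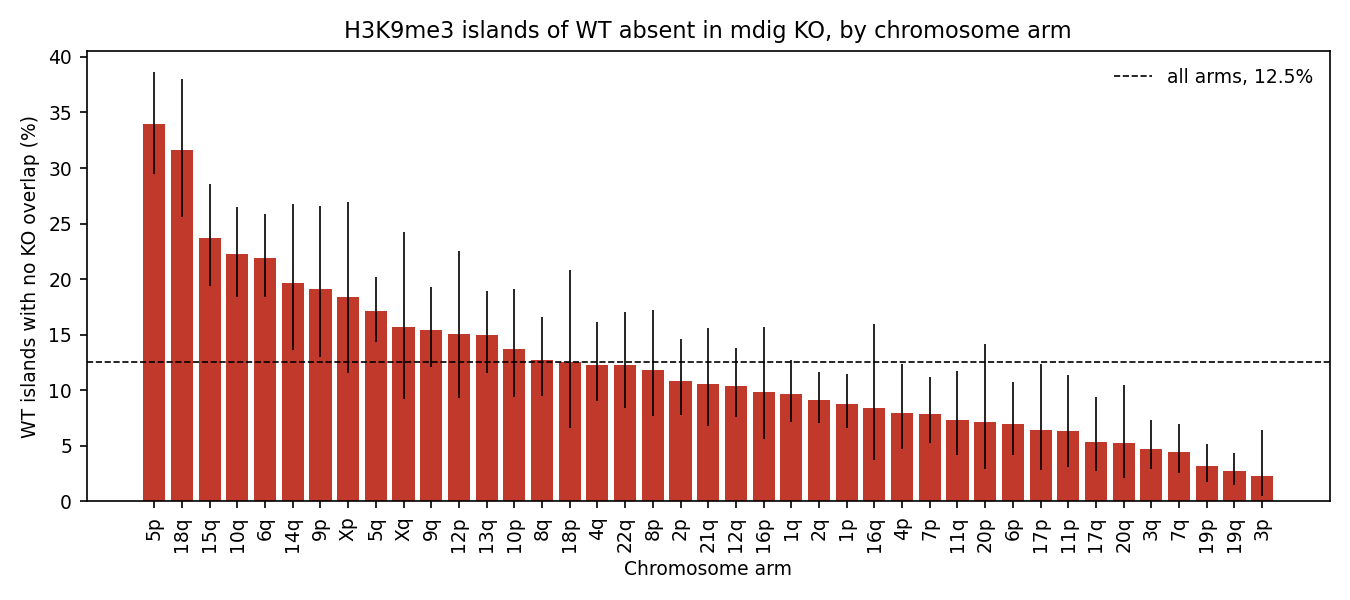
Share of H3K9me3 WT islands with no overlapping KO island (vertical axis, percent) on each of 41 chromosome arms, sorted. Bars are shares, lines are exact 95% binomial intervals that cover counting error only, and the dashed line is the share over all arms, 12.5%. The arms 5p (33.9%) and 18q (31.6%) stand highest and 3p (2.26%) lowest.

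The other marks differed on the same arms. H3R8me2a islands covered 0.993 Mb in KO and 3.17 Mb in WT on 5p, a ratio of 0.313, and 0.161 Mb in KO and 0.838 Mb in WT on 18q, a ratio of 0.193. The ratio of KO to WT was 0.430 on 10q, 0.441 on 6q and 0.672 on 15q, against 1.61 over all arms. A low ratio did not always go with many absent islands, as 22q had an H3R8me2a ratio of 0.497 and an H3K4me3 ratio of 0.891 with 12.2% absent, and 10p an H3R8me2a ratio of 0.637 with 13.7% absent. H3K4me3 covered 1.12 Mb in KO and 1.21 Mb in WT on 5p and 0.726 Mb in KO and 0.903 Mb in WT on 18q, ratios of 0.924 and 0.804, against 1.15 over all arms. H3K27me3 had a ratio of 1.19 on 5p and 0.934 on 18q, the only arm below 1, against 1.33 over all arms. Over the whole of 5p and 18q, even H3K9me3 was longer in KO, but less so. The ratio was 1.52 on 5p and 1.35 on 18q, against 3.70 over all arms. The arm 3p showed the opposite in all 4 marks, with KO to WT ratios of 10.8 for H3K9me3, 11.9 for H3R8me2a, 2.29 for H3K27me3 and 1.53 for H3K4me3. The H3K9me3 ratios come from the same islands as the rule, so they are not separate from the share of absent islands. They also varied along an arm. On 5p, H3K9me3 covered 1689 kb in KO and 621 kb in WT from 0 to 5 Mb. From 25 to 30 Mb of 5p it covered 149 kb in KO and 313 kb in WT. On 18q, KO had less than WT in each 5 Mb window from 25 to 50 Mb, and more from 70 to 80 Mb.

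Islands of the other marks were also missing from KO on these arms. Of the H3R8me2a islands of WT, 84.7% on 18q (94 of 111) and 72.2% on 5p (109 of 151) overlapped no KO island of that mark, the highest shares of the 41 arms. For H3K4me3 the shares were 22.3% on 18q (49 of 220) and 21.8% on 5p (39 of 179), again the highest. For H3K27me3 they were 35.2% on 18q, second of the arms, and 19.7% on 5p, in place 6. Over the 41 arms, the percentage of absent H3K9me3 islands had a Spearman correlation of -0.75 with the KO to WT ratio of H3R8me2a, -0.54 with that of H3K4me3 and -0.19 with that of H3K27me3. Without 5p and 18q the values were -0.71, -0.46 and -0.087. These are descriptions over arms of the same 8 libraries, and arms are not replicates. What the marks share on an arm, and its part in the absent islands, was not tested.

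**Figure D2:**
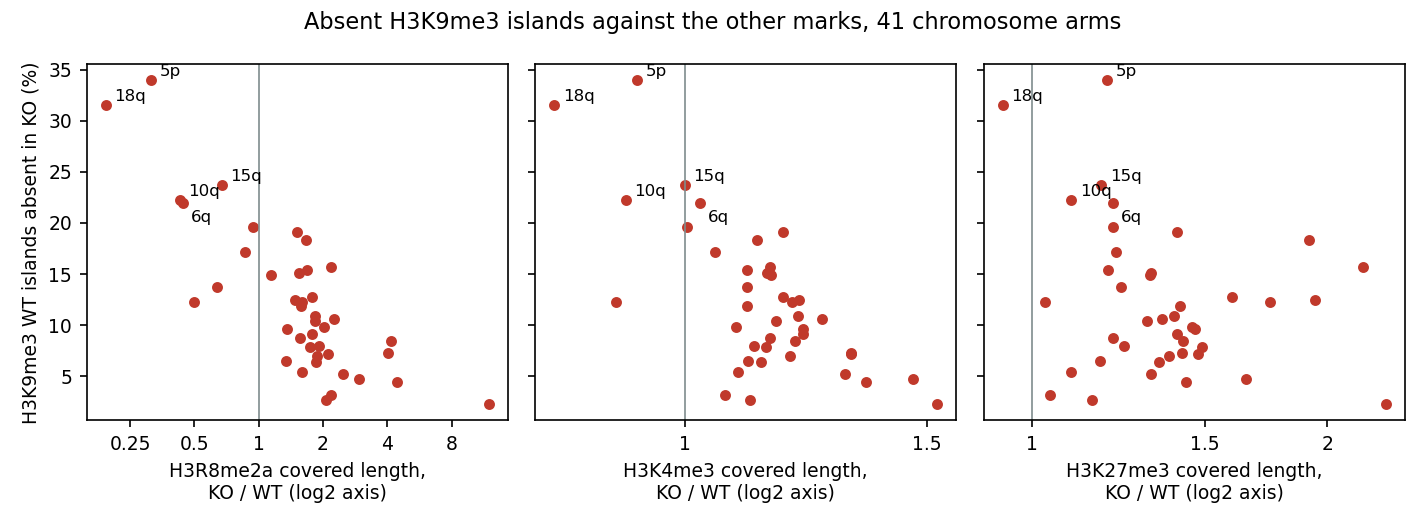
Percentage of H3K9me3 WT islands absent in KO (vertical axis) against the KO to WT ratio of the length covered by H3R8me2a, H3K4me3 and H3K27me3 islands (horizontal axes, log2 scale) on 41 chromosome arms, 1 point an arm. The vertical line marks a ratio of 1. The arms with over 20% absent islands lie to the left for H3R8me2a, where all 5 have ratios from 0.193 to 0.672, as do 22q (0.497) and 10p (0.637) with 12.2% and 13.7% absent, and are less set apart for H3K27me3.

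Absent islands often lay next to each other. The nearest WT neighbour was itself absent for 31.5% of absent islands (474 of 1507) and for 9.33% of shared islands (987 of 10583). This was so on the 5 arms (43.0% of absent against 19.6% of shared islands) and on the other arms (25.6% against 7.73%). Along the chromosomes the absent islands formed 1074 runs without a shared island between them, 814 of 1 island, 175 of 2, 43 of 3 and 42 of 4 or more. The longest run had 16 islands with 67 kb in all, at chr5:29294001-31358400. A run of 8 lay at chr4:29543401-31202200 and one of 7 at chr18:39720201-42060400.

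Among bins of 1 Mb, the 5 with the most absent bases were all on 5p. The bin from 35 to 36 Mb had 7 absent of 19 WT islands, with 46.6 kb, and holds PRLR, IL7R, SPEF2, CAPSL, AGXT2 and UGT3A1. H3K9me3 covered 85.4 kb of it in KO and 121 kb in WT, and H3R8me2a covered 0 kb in KO and 110 kb in WT. The bin at 26 Mb, with CDH9, a cadherin, as its only protein-coding gene, had 10 absent of 16 islands, and 22.2 kb of H3K9me3 in KO against 72.4 kb in WT. The bin at 28 Mb, with no protein-coding gene, had 7 absent of 13, and 27 kb in KO against 64.8 kb in WT. In the bin at 15 Mb, which holds FBXL7, 4 of 13 islands were absent, but H3K9me3 covered 99.8 kb in KO and 94.4 kb in WT. The bin at 33 Mb, with ADAMTS12, AMACR and SLC45A2, had 9 absent of 20, with 101 kb in KO and 116 kb in WT, and its H3R8me2a was 0 kb in KO and 73 kb in WT. Over the 2859 bins measured, 896 held an absent island and 33 held 5 or more.

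Absent islands had a lower GC content than shared and KO-only islands, and the GC content of the whole genome was not measured. Their median GC content was 41.2% (quartiles 37.7% and 45.1%), against 45.2% in shared islands (41.9% and 49.6%) and 48.1% in KO-only islands. Their median CpG density was 5.91 per kb, against 9.47 per kb in shared and 13.6 per kb in KO-only islands. Of WT islands under 35% GC, 54.0% were absent (148 of 274), and of those at 55% or more 3.94% were (40 of 1014), with 26.6%, 11.8%, 7.72% and 5.55% in the classes between. The same order held on the 5 arms, from 76.3% in the lowest class to 10% in the highest, and on the other arms, from 47.9% to 2.46%. The difference was also present within length classes up to 10 kb. In islands of 2 to under 3 kb the median GC was 41.1% for absent and 45.5% for shared islands, and in islands of 5 to under 10 kb it was 40.1% and 44.9%. The 14 absent islands of 10 kb or longer, at 44.4%, were within 1 percentage point of the shared ones, at 44.9%.

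Sequence repeated within an island was rare, as 5 absent islands (0.332%) and 20 shared islands (0.189%) had at least 50% of their 20-base words more than once in the island. This count does not see sequence that recurs elsewhere in the genome, and repeat content was not analysed.

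**Figure D3:**
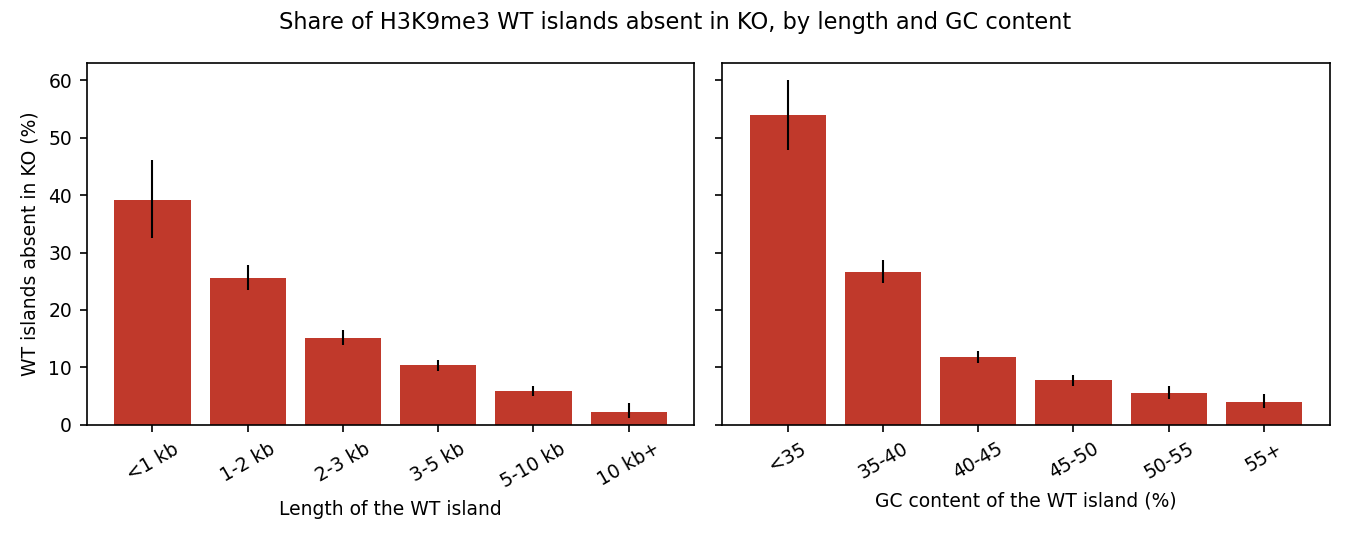
Share of H3K9me3 WT islands absent in KO (vertical axes, percent) by length of the island (left) and by its GC content in percent (right). Lines are exact 95% binomial intervals for counting error. The share falls from 39.2% to 2.29% with length and from 54.0% to 3.94% with GC content.

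Smaller shares of absent than of shared islands overlapped exons and gene starts, while the shares in introns and lncRNA genes were close. Exons of protein-coding genes were overlapped by 5.77% of absent islands (87 of 1507), against 17.2% of shared islands. A protein-coding gene without an exon was overlapped by 34.2% of absent and 31.9% of shared islands, an lncRNA gene alone by 17.6% and 16.1%, and neither kind of gene by 42.4% and 34.8%. The median distance to a protein-coding start was 129 kb for absent and 55.5 kb for shared islands. Within 2 kb of such a start were 14 absent islands (0.929%) and 535 shared islands (5.06%). Exons of zinc finger genes, a known home of H3K9me3, were overlapped by 14 absent islands (0.929%) and by 633 shared islands (5.98%). The size of these gaps varied between length classes. In islands of 2 to under 3 kb, exons were overlapped by 4.80% of absent and 10.1% of shared islands. Exons of zinc finger genes were overlapped there by 1.20% and 3.34%, where the intervals overlapped. From 5 to under 10 kb the exon shares were 12.7% and 24.8%. The zinc finger shares were 1.82% and 7.74% there and 0% and 3.55% from 3 to under 5 kb, with intervals apart in both. Under 1 kb they were 1.20% and 0.775%, 1 island each. On the 5 arms the zinc finger shares were 0.396% of absent and 0.771% of shared islands.

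Other marks were scarce on the absent islands in both genotypes. Any island of H3K4me3, H3K27me3 or H3R8me2a, in KO or WT, overlapped 165 absent islands (10.9%) and 21.5% of shared islands. Since absent islands are shorter, the same was counted by length. It was 9.27% of absent against 16.9% of shared islands from 1 to under 2 kb, 11.0% against 13.9% from 2 to under 3 kb, where the intervals overlapped, and 9.56% against 19.7% from 3 to under 5 kb. H3K4me3 overlapped 23 absent islands in KO (1.53%) and 24 in WT (1.59%), 17 of them in both. It overlapped 5.06% of shared islands in KO and 4.69% in WT. H3K27me3 overlapped 113 absent islands in KO (7.50%) and 74 in WT (4.91%), against 14.2% and 11.3% of shared islands. H3R8me2a overlapped 10 in KO (0.664%) and 21 in WT (1.39%), against 2.60% and 1.97% of shared islands. For H3R8me2a in WT the intervals overlapped.

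Over all H3K27me3 islands of KO, 30.6% overlapped none of WT. H3K27me3 was found in KO alone on 47 absent islands and in WT alone on 8. On shared islands it was in KO alone on 3.55% and in WT alone on 0.671%, against 3.12% and 0.531% of absent islands, and the intervals overlapped for both. The longest such stretch was 6.4 kb, over the whole island chr19:30822801-30829200 in ZNF536, a zinc finger gene of the nervous system. H3K27me3 of KO alone also covered 6.4 kb in ANKH, a pyrophosphate transporter, 4.8 kb in EGFLAM, an extracellular matrix gene, 4.8 kb in COL14A1, a collagen, and 4.6 kb in SELENOP, a selenium carrier. H3R8me2a went the other way, in KO alone on 6 absent islands (0.398%) and in WT alone on 17 (1.13%). On shared islands it was in KO alone on 1.64% and in WT alone on 1.01%. The intervals of absent and shared islands overlapped for WT alone but not for KO alone. Over all H3R8me2a islands, 48.2% of those in KO overlapped none of WT and 28.2% of those in WT overlapped none of KO. On the 5 arms, 0 absent islands had it in KO and 9 in WT, and of the 1426 shared islands there 15 had it in KO (1.05%) and 59 in WT (4.14%). On the other arms it lay on 10 absent islands in KO (0.998%) and 12 in WT (1.20%). Of shared islands there, it lay on 2.84% in KO and 1.63% in WT. It covered 0 kb in KO and 8.6 and 2.8 kb in WT of the absent islands of IL7R, and 0 kb in KO and 7.8 kb in WT of an island of ADAMTS16.

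The surroundings of the absent islands held less H3K9me3 than those of shared islands. Its share over the whole genome was not computed. From 10 to 50 kb from the island centre, H3K9me3 covered 7.42% of bases in KO and 4.06% in WT, so KO had more there than WT, although it had none on the island. Around shared islands it covered 24.2% in KO and 10.4% in WT. H3K27me3 covered 8.24% in KO and 5.46% in WT around absent islands, and 12.9% in KO and 10.2% in WT around shared ones. H3R8me2a was the exception, with 1.20% in KO and 1.69% in WT around absent islands, against 3.80% in KO and 2.73% in WT around shared islands.

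**Figure D4:**
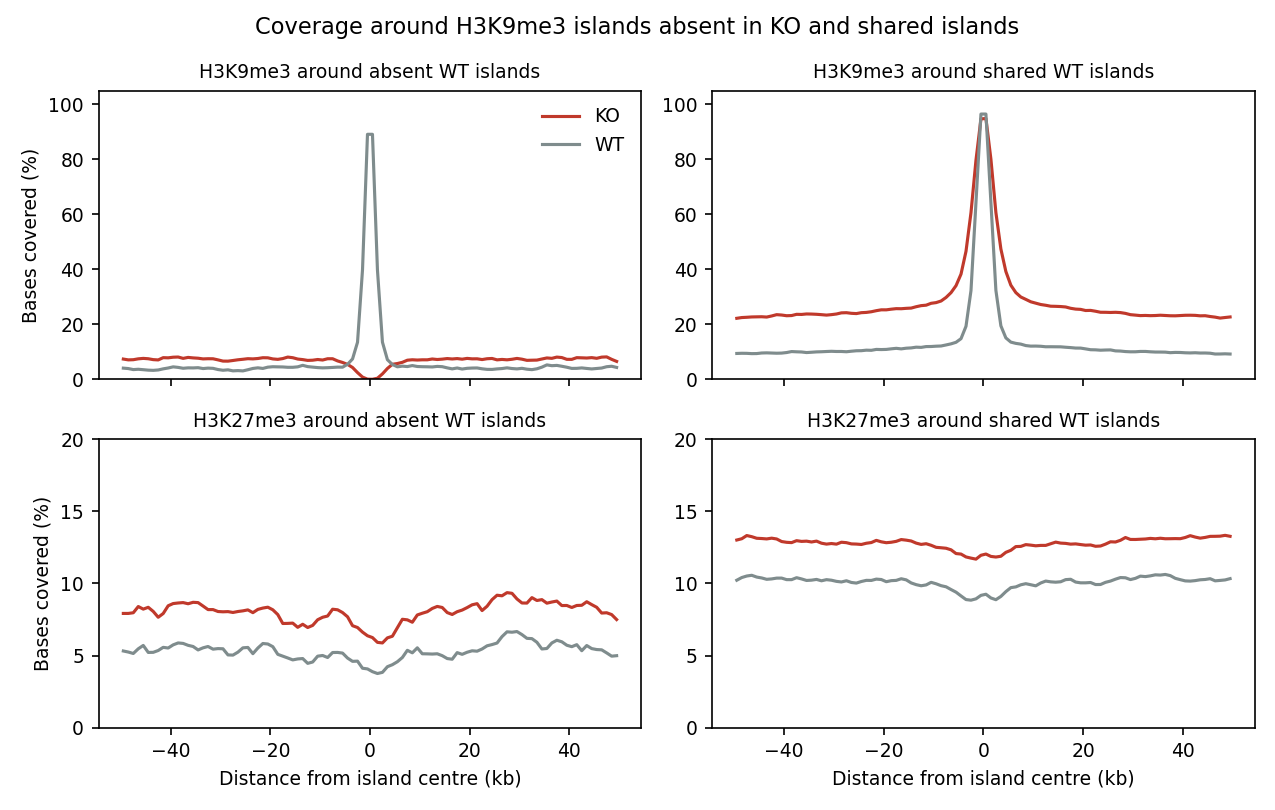
Percentage of bases covered by H3K9me3 (top) and H3K27me3 (bottom) islands of KO and WT, in 1 kb steps by distance in kb from the centre of 1507 absent (left) and 10583 shared (right) H3K9me3 islands. H3K9me3 of KO and WT differ at the centre of absent islands by the rule that chose them. At 10 to 50 kb KO covers 7.42% and WT 4.06% around absent islands, below the 24.2% and 10.4% around shared ones.

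Of 20098 protein-coding genes, 528 (2.63%) held an absent island in the gene body or the 5 kb upstream, 438 of them 1 island, 90 at least 2 and 17 at least 3. These were long genes, with a median of 190 kb against 32.3 kb for all genes. A longer gene has more room to hold an island. The median length of the 3483 genes with a WT H3K9me3 island was not computed. An absent island did not mean that a gene had less H3K9me3 in KO. In 284 of the 528 genes (53.8%) KO had more H3K9me3 bases than WT, in 240 it had fewer and in 4 the same number, and 133 (25.2%) had no H3K9me3 in KO. Of 18592 genes for long noncoding RNAs, 331 (1.78%) held an absent island.

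PDE1C, a phosphodiesterase that breaks down cyclic nucleotides, stood out by number, with 7 absent islands of 1 to 4.4 kb, all in introns and all within chr7:31985001-32166200. KO had 4.4 kb elsewhere in the gene, and the absent islands made up its whole WT coverage of 20.8 kb. Its H3K4me3 was 2.6 kb in KO and 13.2 kb in WT, and its H3K27me3 188 kb in KO and 182 kb in WT. FBXL7 had the most absent bases, 37.2 kb in 3 intronic islands of 15, 13.8 and 8.4 kb, but 74.7 kb of H3K9me3 in KO and 78.2 kb in WT. The rest of its WT coverage lay in islands that overlapped KO islands. In several of the other genes with the longest absent stretches KO had more than WT. Among them were ADAMTS16, a secreted metalloprotease, with 17.6 kb absent, 48.0 kb in KO and 33.6 kb in WT, and its relative ADAMTS17 with 13.4 kb absent, 34.2 kb in KO and 26.2 kb in WT. ATP10A, a lipid flippase, had 11.2 kb absent, 32.4 kb in KO and 19.2 kb in WT. SPOCK1, a secreted proteoglycan, had 11.4 kb absent, 19.2 kb in KO and 18.4 kb in WT.

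Of the 15 genes with the most absent bases, 2 had no H3K9me3 in KO. SEMA5A, an axon guidance gene on 5p, had 0 kb in KO and 12.6 kb in WT, all of it in 2 absent islands 346 and 383 kb from a KO island, and H3K27me3 of 28.2 kb in KO and 68.8 kb in WT. DHX32 had 0 kb in KO and 11.8 kb in WT. ZNF229, a zinc finger gene, had 19.1 kb absent, with 9.97 kb in KO and 20.7 kb in WT. PRLR, the prolactin receptor, had 14.4 kb absent, with 6.8 kb in KO and 23 kb in WT, and its H3R8me2a was 0 kb in KO and 22 kb in WT. SEC14L1, with 1 island of 12.8 kb, had 11.6 kb in KO and 17.4 kb in WT. UBE2QL1, related to ubiquitin-conjugating enzymes, had 10 kb in KO and 12.0 kb in WT. PRH1, TAS2R14 and ENSG00000275778 overlap on 12p and share the same 2 absent islands of 8 and 2.6 kb. Over TAS2R14, a bitter taste receptor, H3K9me3 was 13.8 kb in KO and 15.8 kb in WT. Over the longer regions of PRH1 and ENSG00000275778 it was 29 kb in KO and 24.8 kb in WT for each.

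**Figure D5:**
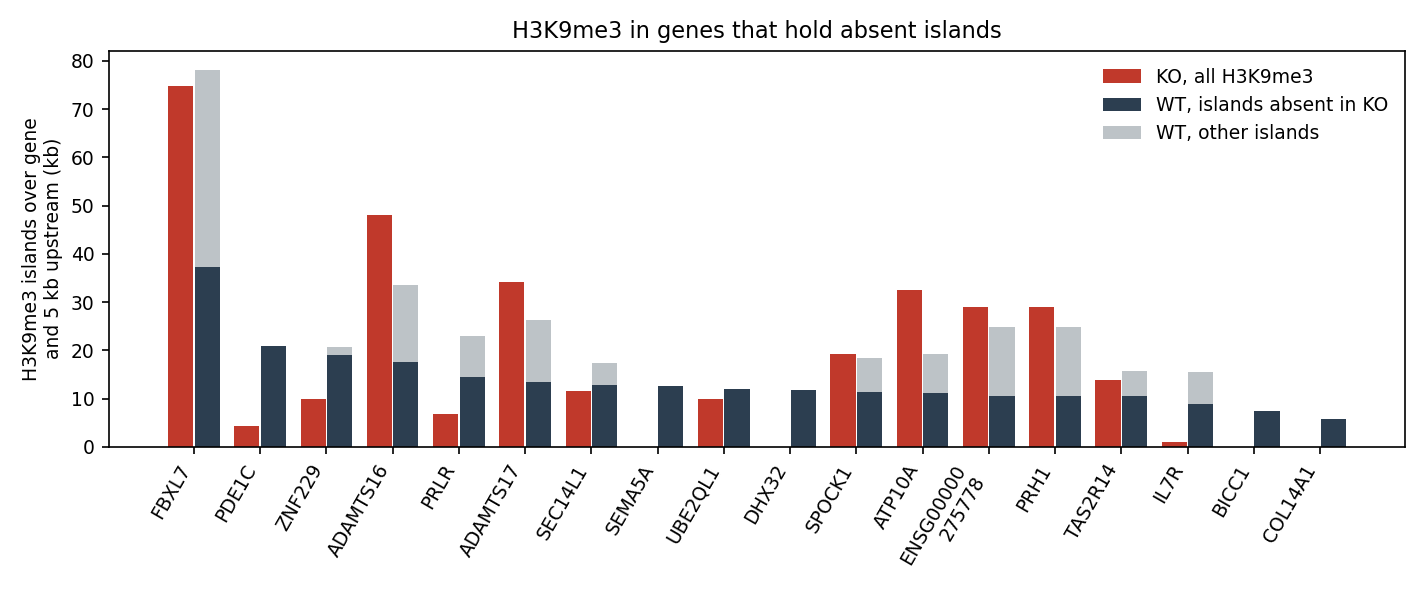
Length in kb of H3K9me3 islands over the gene and 5 kb upstream (vertical axis) in KO and, to its right, in WT, split into islands absent in KO and other islands, for the 15 genes with the most absent bases and for IL7R, BICC1 and COL14A1. FBXL7 has 74.7 kb in KO and 78.2 kb in WT, while SEMA5A, DHX32, BICC1 and COL14A1 have none in KO. PRH1, TAS2R14 and ENSG00000275778 share the same absent islands.

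Outside protein-coding genes, the longest absent island was chr16:32611401-32630800, over an lncRNA gene, 19.4 kb long, 121 kb from a KO island and 54.0 kb from TP53TG3, with no island of another mark in either genotype. Islands of 14.8 kb at chr4:190630001-190644800, 12.6 kb at chr5:2394401-2407000 and 11.6 kb at chr6:57521401-57533000 also lay between protein-coding genes. The second of these carried 6.6 kb of H3K27me3 in KO and in WT.

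Only 14 protein-coding genes (0.0697%) had an absent island within 2 kb of their start, while 575 had a WT island of H3K9me3 there. At 9 of the 14 starts H3K4me3 was present within 2 kb in KO and in WT, and at the other 5 in neither. That share was near the 64.5% in KO and 64.8% in WT over all protein-coding genes. This counts any H3K4me3 island in the window, and on the absent islands themselves the mark could differ. It covered 2.2 kb in KO and 0 kb in WT of the island at PLEKHA5. At TAOK2 it covered 0 kb of the island in KO and 0.2 kb in WT. The widest was shared by DHX32 and FANK1, whose starts lie back to back under 1 island of 11.8 kb. H3K4me3 covered 8.8 kb of that island in KO and 7.2 kb in WT. MMEL1, a metallopeptidase, had 2 absent islands with 9.06 kb, TCERG1L 3 with 8.2 kb, and ZNF22 1 with 3.57 kb over the gene. The island of KDM3A was 1 kb long and lay 56.8 kb from a KO island, and H3K4me3 over the gene was 7.4 kb in KO and 4 kb in WT. TAOK2, a kinase, and H4C8, a histone H4 gene, had islands of 0.8 kb, PLEKHA5 3.8 kb in 2 islands, and the olfactory receptor OR4M1 1.6 kb. The remaining 4 were PDCL2, SLFN11, GSDMC and SMAD4, the common mediator of TGF-β signaling, with 0.103 to 0.589 kb inside the window. Over gene and upstream region, H3K9me3 was 32.7 kb in KO and 13.5 kb in WT at MMEL1, and 60.2 and 40 kb at TCERG1L. It was 18.8 and 14.3 kb at FANK1, 12 and 8.6 kb at PLEKHA5, 3.47 and 0.8 kb at H4C8, and 6.67 and 4.2 kb at GSDMC. The other genes of the 14 had none in KO.

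The gene lists can be read against the 2.63% of all genes. Zinc finger genes held absent islands in 26 of 570 (4.56%). Of the 570, 393 carry H3K9me3 in WT, so 6.62% of the marked ones were involved, below the 15.2% of all genes with WT H3K9me3. That comparison was not matched for gene length or arm, and the median region of zinc finger genes was 30.9 kb. The list was led by ZNF229, followed by ZNF462 with 9.2 kb absent (11.8 kb in KO, 12.6 kb in WT), ZNF717 with 8.8 kb (71.6 kb in KO, 56.4 kb in WT) and ZNF536 with 8.4 kb (30.4 kb in KO, 13.2 kb in WT). Of the genes for interleukins and their receptors, 4 of 85 (4.71%) held one. IL7R, the receptor of interleukin 7, had 8.91 kb absent, with 1.00 kb in KO and 15.5 kb in WT, and its H3R8me2a was 0 kb in KO and 21.1 kb in WT. Its H3K4me3 was 11 kb in KO and 10.6 kb in WT. IL1RAP, an interleukin 1 co-receptor, had 3.2 kb absent, IL1RAPL2 2.4 kb, and IL33, an alarmin, an island of 3.4 kb that ends in its upstream region, with 1.815 kb inside it.

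Collagen genes held absent islands in 2 of 44 (4.55%), with contrary sums. COL14A1 had 0 kb in KO and 5.8 kb in WT, all absent, with H3K27me3 of 140 kb in KO and 17.6 kb in WT. COL5A1 had 2.4 kb absent, but 102 kb of H3K9me3 in KO and 2.49 kb in WT. Of 14 stemness genes that the study names, SPOCK1 and BICC1 held one (14.3%), a list chosen by the study on these libraries and taken here without ISL, which names no single gene. BICC1, an RNA-binding protein, had 0 kb in KO and 7.4 kb in WT, all absent, and H3K4me3 of 0 kb in KO and 7.2 kb in WT, while SPOCK1 had H3K27me3 of 104 kb in KO and 9.6 kb in WT. Of 25 genes for H3K9 enzymes and readers 1, KDM3A, held an absent island (4.00%). Of 65 protocadherins 1 did, PCDH9, with 3.2 kb, although 42 protocadherins carry H3K9me3 in WT. Olfactory receptors had 2 of 415 (0.482%), OR4M1 and OR4N2, which share an island. Among genes with H3K9me3 in WT, the shares were 2 of 7 olfactory receptors (28.6%), 4 of 18 interleukin genes (22.2%) and 2 of 13 collagens (15.4%). They were 1 of 42 protocadherins (2.38%), 2 of 3 stemness genes (66.7%) and 1 of 6 H3K9 enzymes and readers (16.7%). Over all genes the share was 15.2%, and most of these numbers are small. Of the chemokine and receptor genes 3 carry H3K9me3 in WT, and of 32 other genes that the study names 7 do. None of the 55 keratins, 39 HOX genes, 65 chemokines and chemokine receptors or 32 other genes that the study names held an absent island, and keratins and HOX genes had no H3K9me3 island in WT.

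RIOX2 itself held no H3K9me3 island in KO or WT, and its H3K4me3 was 3.8 kb in KO and 3 kb in WT. Islands do not show the edit, so the knockout is not checked by these data. The cell type was checked by H3K4me3 at the starts of marker genes. Of 12 epithelial markers 8 carried it in KO and 8 in WT, among them KRT8, KRT18, CDH1 and EPCAM, while KRT5, KRT19, CLDN4 and TP63 had none in either. Of 12 mesenchymal markers 10 carried it in KO and 10 in WT. Of 12 leukocyte markers 3 did in each, CD68, CD14 and CD8A, and PTPRC did not. Over all protein-coding genes the share was 64.5% in KO and 64.8% in WT, so the epithelial count is near the background and does not by itself mark these cells as epithelial. No marker gene held an absent island.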

How the data were processed

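ChIP-seq islands of H3K9me3, H3K4me3, H3K27me3 and H3R8me2a in KO and WT BEAS-2B cells were analysed. Reads of 75 nt were aligned by the authors with BWA to hg19, extended to 200 bp and sampled down to the smallest sample. The submitters' processing notes also name SICER 1.1. For BWA the version, and for SICER the settings, are not given in the sources used here. Deposited values are island positions per library, with no count, height or p-value, so no depth and no test across replicates could be had. The 63759 merged regions over all libraries were not used, and 4 H3K9me3 WT islands on chromosome Y were left out. The cell number per immunoprecipitation differs between the labels and the paper and is not given.

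Overlap needed 1 base. Positions are 1-based. Genes are those of GENCODE 44 mapped to GRCh37, taken with 5 kb upstream or within 2 kb of the start. Arms were split at the longest run of unknown bases. Intervals are exact Clopper-Pearson at 95%. Python 3.11.15, numpy 2.4.6, scipy 1.17.1 and matplotlib 3.10.9 were used, and the overlap code was tested on simulated data. The members, gene lists and rules were chosen with earlier results of these data known. Named genes are the 15 with the most absent bases, the 10 with the most at their start, up to 4 of each list, those the study names, and RIOX2. The other genes at starts, those of the 1 Mb bins and those where another mark differed were named after their values were seen. Alternatives changed the overlap rule, island length, merging, chromosomes and gene window. Islands do not show how many cells carry a mark. Some sequences and 1 list are not reported here.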

Additional observations from a re-analysis of the deposited data

How the results depend on the processing

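The results were recomputed under 9 alternatives, 50 values in all, of which 45 stayed within their counting interval or within 1.5 times the main count. The number of absent islands was 1251 where a KO island within 5 kb counted as shared and 1808 where sharing needed KO to cover 50% of the island. The share of WT islands absent was 10.3% and 14.95% under these settings, against 12.5%. The share on 5p was 29.3% with the 5 kb rule, against 33.9%. The number of genes was 14 within 2 kb of the start, against 528 over gene and upstream region, because the window is smaller. The median length was 2.8 kb with the 50% rule, against 2.4 kb. GC content was not recomputed for merged islands. No paired analysis was possible because each mark had 1 library of KO and 1 of WT. With no height, score or read number in the files, an island that fell below the calling threshold in KO cannot be told apart from one without the mark.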

Other observations

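Among genes for long noncoding RNAs, ENSG00000289734 on 16p lies under the longest absent island and had 0 kb of H3K9me3 in KO and 19.3 kb in WT. ENSG00000248752 on 5q held 5 absent islands with 15.2 kb, with 32.2 kb of H3K9me3 in KO and 25 kb in WT, and ENSG00000250697 on 5p held 4 with 14 kb, with 24.2 kb in KO and 44 kb in WT.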
